A study of Mus with 3 samples.

Results

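The 7 genes described here encode the MHC class II antigen presentation machinery of the mouse: the chain genes H2-Aa, H2-Ab1 and H2-Eb1, the invariant chain gene Cd74, the peptide editor genes H2-DMa and H2-DMb1, and the transactivator gene Ciita. They were found by the gene name that the array files give each probe, and they account for 8 of 39429 gene probes, H2-Ab1 having 2 probes and each other gene 1. Every member probe was printed at 1 spot per array. The members were chosen by the differences in their signal between these same arrays, with earlier results known, and H2-Eb1 was set against the others for that reason. Every difference below is therefore a description, and no test was made.

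Hippocampal RNA was measured in male Slc:ddY mice, an outbred stock, aged 6 weeks, on 1 array for each of 3 groups of 10 mice. In ASO, mice received 2000 mg/kg/day of shochu oil, an oil from a sweet potato spirit, by mouth for 15 days, and 5 µL with 10 nmol of the amyloid fragment Aβ25-35 went into the cerebral ventricles on day 8. In ACO, mice had distilled water by mouth and the same peptide injection. In NCO, the normal controls, mice had distilled water by mouth and 5 µL of distilled water in place of the peptide, by a route that the labels do not spell out. The injected groups are named ACO and SCO in the protocol text, and SCO was read as ASO, which the design text describes as injected. Hippocampi were taken after a Y-maze memory test on day 16. RNA from 2 mice formed 1 set, and 5 sets were pooled per array, so differences between mice cannot be seen and there were no replicates. Class II genes vary strongly between mouse haplotypes, and the haplotypes of these outbred mice were not analysed here.

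Class II molecules are pairs of an α and a β chain that show fragments of ingested protein to CD4 T cells. Cd74 holds the empty groove and is trimmed by lysosomal proteases, after which H2-DM, made of the H2-DMa and H2-DMb1 products, exchanges the last piece of it for a peptide. Ciita switches on the whole set by binding a platform of RFX, NF-Y and CREB proteins at their promoters, and interferon-γ induces it. In brain, the set is known from macrophages at the borders, such as those of choroid plexus and meninges, and from activated microglia. The chain and H2-DM genes lie on chromosome 17, where H2-Ab1, H2-Aa and H2-Eb1 are direct neighbours, while Cd74 lies on chromosome 18 and Ciita on chromosome 16, per the RefSeq gene table used for names.

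Signals below are background-corrected spot intensities, scaled so that the 75th percentile was equal on all arrays. Differences are on the log2 scale after 50 was added to each signal, first array minus second. A gene was measured in a comparison where its probe reached 2.6 or more, on both arrays, in the scanner software's signal to noise score. That held for 5 of the 7 members in every comparison. Ciita was not well above background on any array, and H2-Aa was well above it on ASO alone. The share of all probes well above background was 53.7% on ASO, 51.7% on ACO and 50.9% on NCO. Among probes printed at 10 spots with a signal between 100 and 1000, the median SD over spots of a difference was 0.09 for ACO minus NCO (128 probes), 0.10 for ASO minus ACO (130 probes) and 0.10 for ASO minus NCO (132 probes). This SD covers spot error only. E1A spike-in control transcripts also differed between arrays, with median differences of -0.14 for ACO minus NCO and 0.48 for ASO minus ACO over 5 probes each, and 0.32 for ASO minus NCO over 6. The part of RNA input or labelling in the members' differences was not tested.

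H2-Ab1, the β chain of the A molecule, had signals of 483 on ASO, 425 on ACO and 346 on NCO at its brighter probe. Its other probe had 432 on ASO, 334 on ACO and 279 on NCO. Both probes thus ran in the same order, highest on ASO and lowest on NCO. The difference of ACO minus NCO was 0.26 at the brighter probe and 0.22 at the other, that of ASO minus ACO 0.17 and 0.33, and that of ASO minus NCO 0.43 and 0.55. The step between ASO and ACO at the brighter probe was the least secure of these, since it was 0.07 with spot means in place of spot medians and 0.06 after correction by the spots around it.

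H2-Eb1, the β chain of the E molecule, had signals of 259 on ASO, 461 on ACO and 282 on NCO. It was high on ACO alone, and ASO and NCO were close. ACO was the highest array for 33.4% of the 13186 genes measured in all 3 comparisons. The H2-Eb1 difference of ACO minus NCO was 0.62 (1.54-fold), that of ASO minus ACO -0.73, and that of ASO minus NCO -0.11. The first of these stood at place 20 from the top of 13310 genes, and the second at place 18 from the bottom of 13564 genes. Both steps rest on the same single spot of the ACO array, so an error there would enter both with opposite sign. Uncorrected foreground medians at this spot were 279 on ASO, 499 on ACO and 292 on NCO, against local backgrounds of 34, 31 and 44. The spot lay in column 3 of the array, near its edge, and the measured spots around it had median differences of -0.01 for ACO minus NCO and -0.01 for ASO minus ACO. After correction by them the values were 0.63 and -0.72.

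H2-Eb1 was the 1 member probe among 475 probes in the authors' deposited table, which gave it 210.6 on ASO, 414.9 on ACO and 247.8 on NCO. On the log2 scale, with no constant added, the ratios of those values come to 0.74 for ACO minus NCO and -0.98 for ASO minus ACO. For ASO minus NCO the ratio comes to -0.23. The deposited values follow the foreground medians of the same spots linearly, so they are not a second measurement of H2-Eb1. The α chain that pairs with H2-Eb1 is the product of H2-Ea, which the array files name H2-Ea-ps and the RefSeq gene table lists as a transcribed pseudogene. The H2-Ea probe had signals of 19.8 on ASO, 14.7 on ACO and 7.62 on NCO and was not well above background on any array. No partner transcript was therefore detectable with this probe, at ACO or elsewhere.

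H2-Aa, the α chain that pairs with the H2-Ab1 product, had signals of 71.4 on ASO, 30.8 on ACO and 40.6 on NCO. With the constant of 50 added, the H2-Aa signal on ASO was 1.5018-fold that on ACO and 1.34-fold that on NCO. These are observed folds and not minima, since ACO and NCO were not well above background. On both dim arrays the probe's own value was above the lowest value of any probe well above background, and that own value was used. Foreground medians of 86 on ASO, 59 on ACO and 55 on NCO gave the same order of ASO against the others. The local background was 30 on ASO, 44 on ACO and 34 on NCO, and the spots around it stood 0.13 higher on ASO than on ACO and 0.17 higher than on NCO. After correction by them the differences were 0.46 for ASO minus ACO and 0.25 for ASO minus NCO, against 0.59 and 0.42 without it.

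**Figure D1:**
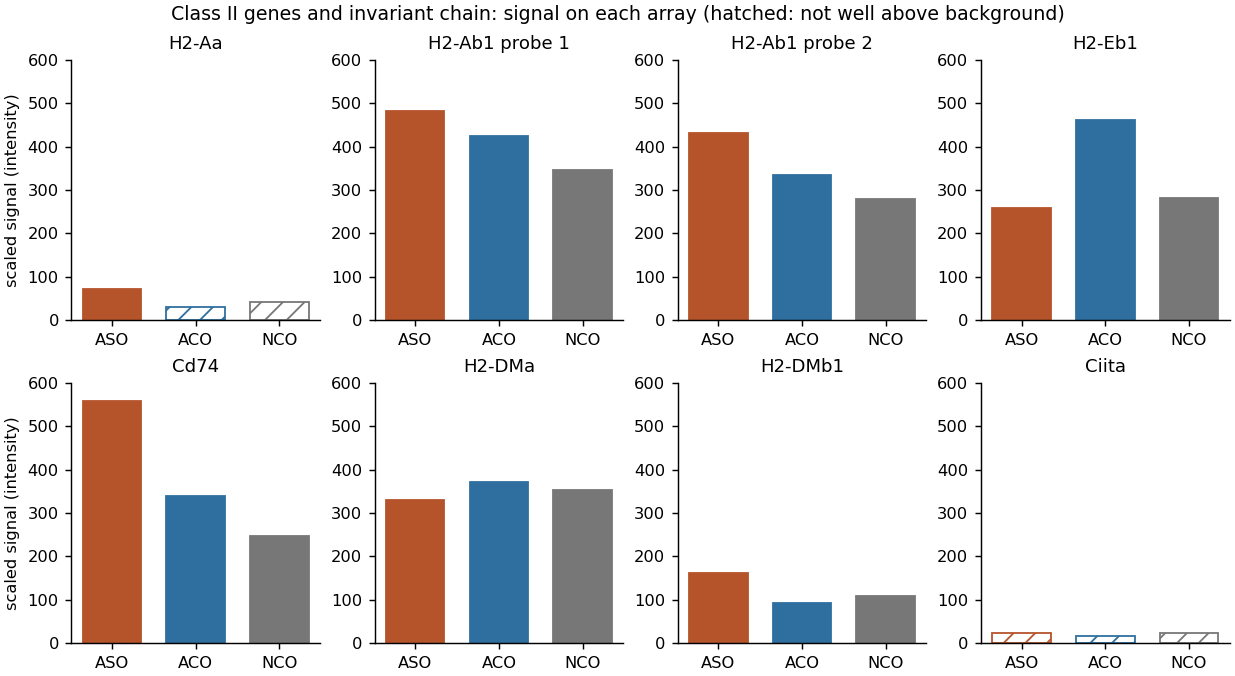
Scaled, background-corrected signal (intensity units, linear axis from 0) of each of the 8 member probes on the ASO, ACO and NCO arrays, 1 pool of 10 mice each and so without error bars. H2-Eb1 peaks on ACO at 461, Cd74 and both H2-Ab1 probes step down in the order ASO, ACO and NCO, and hatched bars mark probes not well above background.

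Cd74, the invariant chain and chaperone of class II molecules, had signals of 559 on ASO, 340.2 on ACO and 247 on NCO. The 3 arrays were well separated, in the order also seen for H2-Ab1 and for 18.4% of the 13186 genes measured in all 3 comparisons. The difference of ACO minus NCO was 0.39, that of ASO minus ACO 0.64 and that of ASO minus NCO 1.04. The last stood at place 22 from the top of 13453 genes and, at 2.05-fold, was the largest difference of any measured member in the 3 comparisons. The spots around Cd74 stood at -0.14 for ACO minus NCO and -0.15 for ASO minus NCO, and correction by them gave 0.53 and 1.18. For ASO minus ACO, the 5 E1A control probes ranged from 0.41 to 0.82, and Cd74 at 0.64 and H2-DMb1 at 0.59 lay within that range. For ASO minus NCO, 6 control probes ranged from 0.15 to 0.68, with Cd74 at 1.04 above them and H2-DMb1 at 0.42 among them. For ACO minus NCO, 5 ranged from -0.163 to -0.120, with Cd74 at 0.39 above them and H2-DMb1 at -0.164 just below.

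The 2 editor genes ran differently from each other, although their products form 1 dimer. H2-DMa had signals of 329.9 on ASO, 372 on ACO and 352 on NCO. Its differences of 0.07 for ACO minus NCO and -0.08 for ASO minus NCO were below the median SD over spots, and that of ASO minus ACO was -0.15. H2-DMb1 had signals of 163 on ASO, 91.6 on ACO and 109 on NCO. It was high on ASO, with a difference of 0.59 for ASO minus ACO and 0.42 for ASO minus NCO, and it was at -0.16 for ACO minus NCO. Foreground medians of H2-DMb1 were 127 on ACO and 125 on NCO over local backgrounds of 48 and 40, so they were about equal before background correction and scaling. Ciita, the transactivator, had signals of 21.8 on ASO, 16.6 on ACO and 23.6 on NCO. No order of the groups can be read from values at that level, and a change in Ciita was not detectable on these arrays.

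ACO was set against NCO to ask how the peptide-injected hippocampus stood against the normal control. Of the 5 measured members, 4 were above 0 and 1 was below, with a median of 0.26 against 0.0048 over all 13310 genes. Of all genes, 51.8% were above 0. H2-Eb1 was the 1 member at least 1.5-fold higher, where 0.203% of all genes were, and no member was at least 1.5-fold lower, where 0.21% were. At 1.2-fold, H2-Eb1 and Cd74 were higher, where 2.76% of genes were, and no member was lower, where 2.72% were. H2-Ab1, at 0.2624, fell just short of that limit and ranged from 0.24 to 0.31 over the alternatives, past it under some of them. H2-Eb1 stood 0.46 above the median of the other 4 measured members. The order was H2-Eb1, Cd74, H2-Ab1, H2-DMa and H2-DMb1, and H2-Ab1 and Cd74 lay 0.26 and 0.39 above NCO, a gap between them close to the spot error.

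ASO was set against ACO to ask how the oil-fed, injected mice stood against the injected ones. Cd74 and H2-DMb1 were at least 1.5-fold higher, where 1.64% of all genes were, and H2-Eb1 was at least 1.5-fold lower, where 0.273% were. H2-DMb1 was just past that limit, at 0.586 against 0.585, and fell short of it under some of the alternatives. At 1.2-fold the same members were called, where 10.1% of genes were higher and 9.26% were lower. The 5 measured members had a median of 0.17 against -0.013 over 13564 genes, with 3 above 0 and 2 below. Of all genes, 47.1% were above 0. H2-Eb1 stood at -1.10 from the median of the other 4. The members thus split, with H2-Eb1 at one end and the invariant chain at the other.

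ASO was set against NCO to ask how far oil-fed, injected mice stood from normal controls. Cd74 was the 1 member at least 1.5-fold higher, where 1.65% of all genes were, and no member was at least 1.5-fold lower, where 0.357% were. At 1.2-fold, Cd74, H2-Ab1 and H2-DMb1 were higher, where 10.3% of genes were, and no member was lower, where 8.32% were. H2-Eb1 and H2-DMa were at -0.11 and -0.08, near or under the spot error. The median of the 5 was 0.42 against -0.014 over 13453 genes, and H2-Eb1 stood at -0.53 from the median of the others.

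**Figure D2:**
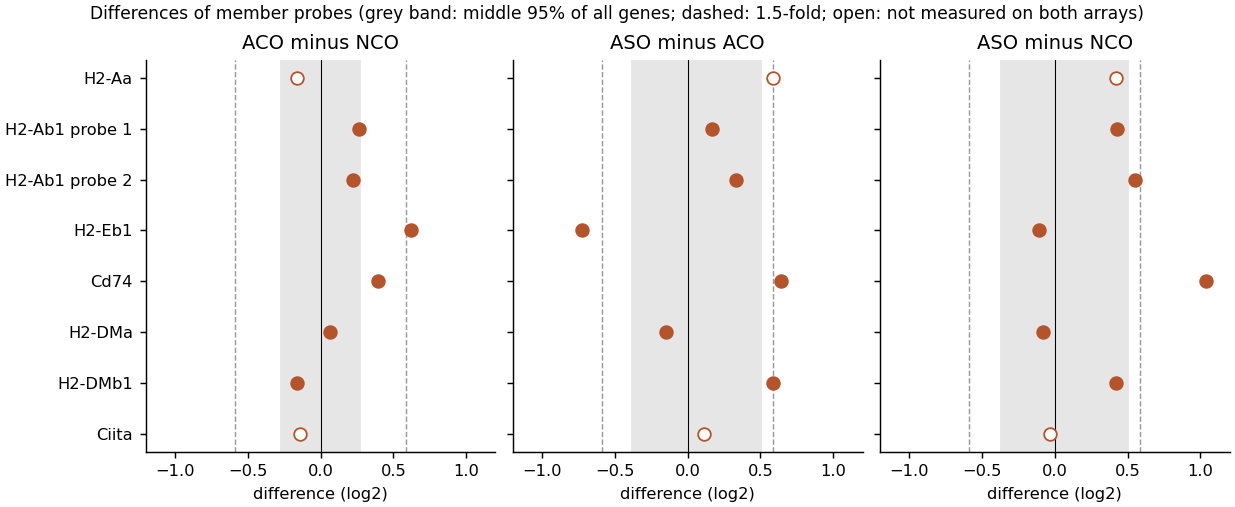
Differences (log2) of the 8 member probes in the 3 comparisons, with the middle 95% of all genes as a grey band and 1.5-fold as dashed lines; open circles were not measured on both arrays. H2-Eb1 lies at 0.62 for ACO minus NCO, -0.73 for ASO minus ACO and -0.11 for ASO minus NCO, and Cd74 lies to the right of 0 in each.

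The comparisons share arrays, so their values are given side by side and no relation between them was computed. Of 13186 genes measured in all 3 comparisons, 5 were at least 1.5-fold higher on ACO than on both other arrays: H2-Eb1, Pink1, S100a9, Sh3bgr and Tgtp2, named after their values were seen. S100a9, a neutrophil gene, was at 0.67 for ACO minus NCO and -0.68 for ASO minus ACO, and Tgtp2, an interferon-induced GTPase gene, was at 0.64 and -0.94. Of 7 monocyte and neutrophil markers, 6 were on the array, and S100a9 and Camp alone were measured, with Camp at -0.02 and 0.15. The summed signal of the 6 markers on the array, the dim ones included, was 332 on ASO, 393 on ACO and 305 on NCO. S100a8 and Ccr2 were not well above background on any array. The part of blood cells in the H2-Eb1 values was not tested. Likeness of pattern was measured as the Euclidean distance between log2 values centred on each gene's mean over the 3 arrays, among 9889 genes. Nearest to H2-Eb1 were Kcne2 (distance 0.13), Itga11 (0.14), Sox1 (0.14), Tgtp2 (0.16) and Bccip (0.17). Nearest to Cd74 were Pogz (0.04), Pou1f1 (0.05), P3h4 (0.08), Vim (0.12) and Apoc1 (0.12). With 3 arrays, many genes can share a pattern.

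Kcne2, the nearest to H2-Eb1, encodes a potassium channel subunit of choroid plexus epithelium, and the choroid plexus list was likewise high on ACO. It had signals of 338 on ASO, 522 on ACO and 325 on NCO. Of 9 choroid plexus genes, all measured, 8 were above 0 for ACO minus NCO, where 51.8% of all genes were, with a median of 0.51. For ASO minus ACO 8 were below 0, with a median of -0.26, and 47.1% of all genes were above 0. For ASO minus NCO, where H2-Eb1 was at -0.11, 8 were above 0, where 47.1% of all genes were, with a median of 0.18. At 1.2-fold, 4 were higher, where 10.3% of all genes were, and 1 was lower, where 8.32% were. Ttr, the gene of the transport protein transthyretin, was the exception in each, at -0.46 for ACO minus NCO, 0.10 for ASO minus ACO and -0.36 for ASO minus NCO. The summed signal of the list, which Ttr weighs on, was 21145 on ASO, 21203 on ACO and 24779 on NCO. All 9 were well above background on every array. The part of choroid plexus tissue in the H2-Eb1 values was not tested. In pooled bulk RNA, more cells of a type and more RNA per cell cannot be told apart.

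**Figure D3:**
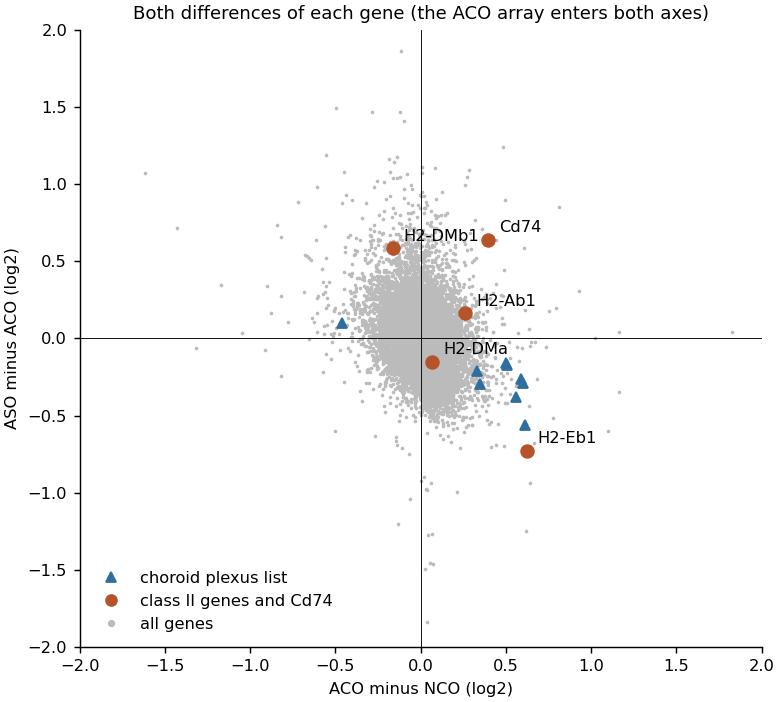
Difference of ACO minus NCO (horizontal, log2) against ASO minus ACO (vertical, log2) for each gene, with the 5 measured members as orange circles and the choroid plexus list as blue triangles. The ACO array enters both axes with opposite sign. H2-Eb1 lies at the lower right (0.62 and -0.73) near Kcne2, and Cd74 at the upper right (0.39 and 0.64).

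Microglia markers were measured in full. For ASO minus ACO 9 of 10 were above 0, where 47.1% of all genes were, with a median of 0.29. Aif1 was highest at 0.51, and P2ry12, which encodes a nucleotide receptor of surveying microglia, was at -0.40. For ACO minus NCO 5 of 10 markers were above 0, where 51.8% of all genes were, with a median of 0.04. Their summed signal was 31676 on ASO, 27194 on ACO and 26664 on NCO. Of 9 border macrophage markers, 7 were measured and all 7 were above 0 for ASO minus ACO, where 47.1% of all genes were. The median of the 7 was 0.15, from the mannose receptor gene Mrc1 at 0.08 to Stab1 at 0.57. For ACO minus NCO their median was -0.02, and Cd163 and Lyve1 were not well above background on any array. The summed signal of that list was 1330 on ASO, 1041 on ACO and 1076 on NCO. The part of either cell type in the values of Cd74, H2-DMb1 and H2-Ab1 was not tested.

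Markers of dendritic cells and T cells were mostly dim. Of 7 dendritic cell genes, Flt3 and Batf3 alone were measured, and they ran opposite ways. Flt3 was at 0.06 for ACO minus NCO and -0.22 for ASO minus ACO, and Batf3 at -0.18 and 0.35. The summed signal of all 7 dendritic cell genes, the dim ones included, was 514 on ASO, 509.9 on ACO and 518 on NCO. Cd3e and Lck were the measured ones of 7 T cell genes, with Cd3e at -0.19 for ACO minus NCO and 0.40 for ASO minus ACO and Lck at -0.06 and -0.0044. The list's summed signal was 446 on ASO, 396 on ACO and 448 on NCO. Endothelial genes had medians of -0.12 for ACO minus NCO (6 measured) and 0.21 for ASO minus ACO (5 measured), and red cell genes of -0.18 and 0.18 (3 measured). The red cell genes were apart for ASO minus ACO, with Hbb-b2 at 0.93, Alas2 at 0.18 and Hba-a1 at 0.07. Hbb-b2 was the 1 at least 1.5-fold higher there, where 1.64% of all genes were. All 8 hippocampal neuron markers, among them Prox1 of granule cells and Wfs1 of CA1 cells, were well above background on every array, as the tissue label has it.

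The other genes of the pathway were taken from lists. Of the further class II genes, the accessory H2-O chain gene H2-Ob was the 1 measured, in ASO minus ACO alone, at 0.13. H2-Oa, the partner chain, was well above background on ASO alone. Its observed fold for ASO against ACO was 1.23, which rests on a dim ACO value and is not a minimum. H2-Eb2 and H2-DMb2 were not well above background on any array. All 7 genes that process antigen or class II molecules were measured, with medians of 0.07 for ACO minus NCO and 0.19 for ASO minus ACO. For ASO minus ACO, 1 was at least 1.5-fold higher, where 1.64% of all genes were, and none was at least 1.5-fold lower, where 0.273% were. The 1 was Marchf1, a ubiquitin ligase that removes class II molecules from the surface, at 0.69 from a probe of 1 spot. Its second probe, printed at 10 spots and well above background on all 3 arrays, was at -0.25. Ctss, the protease that trims Cd74 in microglia and macrophages, had signals of 7532 on ASO, 5269 on ACO and 5031 on NCO, with differences of 0.51 for ASO minus ACO and 0.07 for ACO minus NCO. Sppl2a, which clears the Cd74 remnant, was at 0.52 for ACO minus NCO and -0.12 for ASO minus ACO. Ifi30, the lysosomal thiol reductase, was at 0.07 and -0.03.

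Of 17 genes that control class II transcription, 12 were measured for ACO minus NCO and 13 for ASO minus ACO, with medians of 0.08 and 0.02. None was at least 1.5-fold apart in either comparison, where 0.203% of all genes were higher and 0.21% lower for ACO minus NCO, and 1.64% higher and 0.273% lower for ASO minus ACO. For ASO minus NCO, 1 of 12 was at least 1.5-fold higher, where 1.65% of all genes were. It was Irf8, a myeloid transcription factor gene, at 0.63. Irf8 was also highest for ASO minus ACO at 0.47, and Ifngr1, the ligand-binding chain of the interferon-γ receptor, was at 0.34, while the signalling chain gene Ifngr2 was at -0.29. Rfxap, part of the RFX complex, was at 0.02 for ASO minus ACO and at 0.22 for ACO minus NCO. Nfyb, a subunit of NF-Y, was at -0.32 for ASO minus ACO at its brightest probe, with its other probes at -0.19 and 0.07. Ifng, the interferon-γ gene itself, Rfx5 and Spi1 were not well above background on any array. Of 7 genes of the contact with T cells, 4 were measured for ASO minus ACO, with a median of 0.18. Of these 4, 3 were above 0, where 47.1% of all genes were, and 1 was below. They were Cd4 at 0.45, Cd80 at 0.27, Icosl at 0.08 and Cd274 at -0.13. The Cd4 value came from a probe of 1 spot, and its other probe, printed at 10 spots, was not well above background on any array. For ACO minus NCO 3 were measured, with a median of -0.01. Cd86 was well above background on ASO alone. Its observed fold for ASO against ACO was 1.19, which rests on a dim ACO value and is not a minimum.

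**Figure D4:**
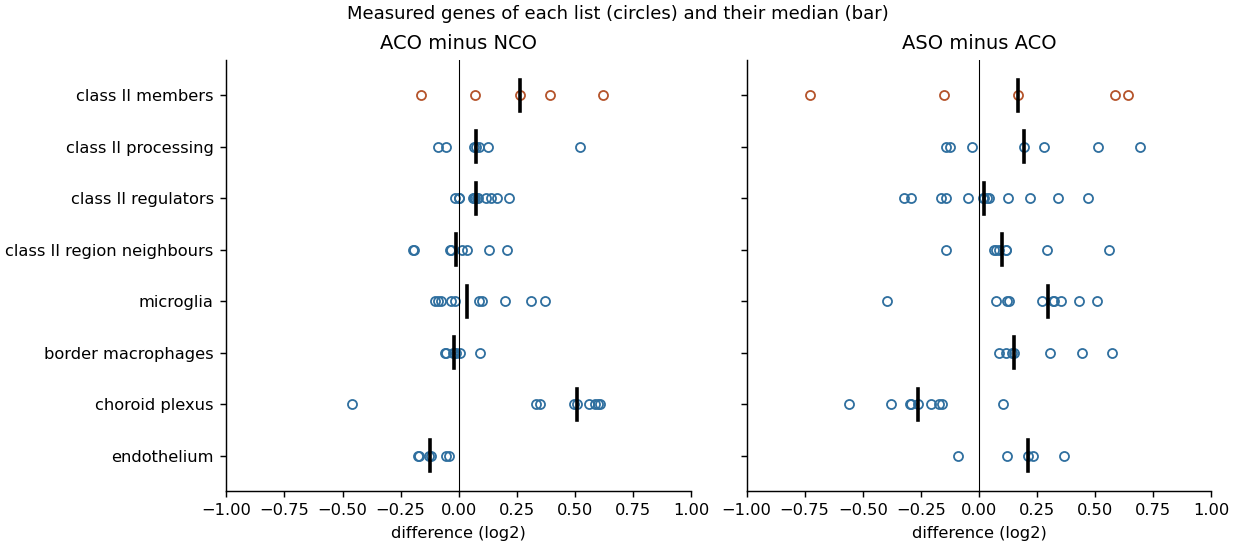
Differences (log2) of the measured genes of 8 lists (circles) with their median (bar), for ACO minus NCO on the left and ASO minus ACO on the right. Class II members spread from -0.16 to 0.62 on the left and from -0.73 to 0.64 on the right, and the choroid plexus list has medians of 0.51 and -0.26.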

How the data were processed

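Each of the 3 arrays held Cy3-labelled RNA of 1 pool. Spot foreground and local background are intensities without normalization, scanned at 532 nm and quantified by the authors with GenePix Pro 6.1.0.4, per the file headers. For each spot the authors deposited the percent of saturated pixels, a signal to noise score and a spot mark. The submitters' processing notes name Agilent Feature Extraction, but the files hold GenePix columns. The authors' deposited table holds intensities that follow the foreground medians linearly on every array (within 0.05); the origin of the slopes (0.893 on ASO, 0.917 on ACO, 1 on NCO) is unknown, and column medians were 113.3, 97.4 and 116.8.

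Foreground medians were corrected by local background medians (limma 3.58.1, R 4.3.3, normexp, saddle fit, offset 0), scaled to a common 75th percentile (factors 0.991 on ASO, 0.949 on ACO, 1.06 on NCO), and averaged per probe as log2 of the signal plus 50. Summaries used Python 3.11.15 and pandas 2.3.3. A gene entered a comparison by its brightest probe at 2.6 or more in the signal to noise score on both arrays, under 50% of saturated pixels on at least 1 of them, and no bad mark. Names came from RefSeq genes of GRCm38.p6, in which all 8 member probes matched by accession. The members, lists and the 1.5-fold limit were chosen with earlier results of these data known. Named genes were all members, genes of the pathway lists, and the 5 nearest in pattern to H2-Eb1 and to Cd74 leaving out genes in the lowest quartile of mean signal. With 1 array per group no test was possible, and the number of arrays limits the precision. The steps were tested on simulated data. In all, 10 alternatives were tried. No probe or gene sequences were used. One of the marker lists is not reported here.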

Additional observations from a re-analysis of the deposited data

How the results depend on the processing

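No replicate was left out, and no paired analysis was possible because each group had 1 array. The directions of every measured member held in each of the 10 alternatives that could give a value; H2-DMb1 gave none for ACO minus NCO and ASO minus ACO at a signal to noise limit of 5. With spot means, the members' median was 0.065 for ASO minus ACO and 0.32 for ASO minus NCO, 1 member was at least 1.5-fold higher for ASO minus ACO, and H2-Eb1 stood at -0.36 from the other members for ASO minus NCO. At that limit, the median for ASO minus ACO was 0.0079 with 1 member at least 1.5-fold higher, and H2-Eb1 stood 0.36 from the others for ACO minus NCO and -0.89 for ASO minus ACO, over 4 members. After correction by surrounding spots the median for ASO minus ACO was 0.063, again with 1 member at least 1.5-fold higher, and quantile normalization also left 1. With no filter on dim probes, over all 7 members, the median for ACO minus NCO was 0.068 and H2-Eb1 stood 0.66 from the others. With 16 or 0 added before log2, H2-Eb1 stood at -1.23 or -1.28 from the others for ASO minus ACO, and with 0 added at -0.66 for ASO minus NCO. The cause of these shifts was not tested, beyond the changed number of members. H2-Eb1 ranged from 0.60 to 0.72 for ACO minus NCO and from -0.83 to -0.72 for ASO minus ACO. Single spots and pooled mice leave the error between mice unmeasured.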

Other observations

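Genes that neighbour the class II genes on chromosome 17 differed little between ACO and NCO. Of 11, 8 were measured, with a median of -0.01 and a range from -0.20 for Notch4 to 0.21 for Psmb9, an immunoproteasome subunit gene. For ASO minus ACO, 7 of the 8 were above 0, where 47.1% of all genes were. Their median was 0.10, with a range from Rnf5 at -0.14 to Agpat1, a phospholipid synthesis gene, at 0.56. Psmb8, another immunoproteasome gene, was at 0.29 and Tap2, a peptide transporter gene, at 0.06. None of the 8 was at least 1.5-fold apart in either comparison, where 0.203% of all genes were higher and 0.21% lower for ACO minus NCO, and 1.64% higher and 0.273% lower for ASO minus ACO. Tap1, Btnl2 and Ager were not well above background on any array.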
